A study of Mus musculus with 12 samples.

Results

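Immunoglobulin transcripts were followed in cultured bone marrow stroma of wild-type, Crebbp+/- and Ep300+/- mice, as a sign of antibody-producing lineage RNA in an adherent support layer. The members are all probe sets of the analysed table whose platform annotation holds a symbol of the immunoglobulin kappa, heavy or lambda loci or of the J chain. The rule found 4 of 3109 probe sets. All 4 carried kappa symbols, and 0 carried a heavy chain, lambda or J chain symbol. One of the 4, 1452463_x_at, is annotated to Igkv8-30 alone. The other 3 probe sets, 1427455_x_at, 1427660_x_at and 1452417_x_at, share 5 symbols (Igkv6-23, Igkv4-53, Igkv8-30, Igkj1 and Igkc), so they stand for the kappa locus and no single gene was named from them. A further 447 probe sets have no symbol here and could not be searched by the rule. The table had also been filtered on level and spread. Whether heavy chain, lambda or J chain RNA was present is therefore not known.

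The arrays came from C57BL/6 mice aged 3 to 4 months, with 4 arrays each for wild-type, Crebbp+/- and Ep300+/- stroma, 12 in all. In every group the marrow had been cultured for 2 weeks to form a stroma layer, which then received 1500 cGy of radiation and new medium. Crebbp and Ep300 encode related acetyltransferases that serve as coactivators of transcription, and each heterozygote has 1 altered copy of 1 of them. The labels call the arrays biological replicates and do not say whether marrow of several mice was pooled, or what the alleles are.

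An immunoglobulin is built of heavy and light chains, and kappa is the more used light chain of the mouse. A developing B cell joins 1 kappa variable (V) segment to a joining (J) segment, and the joined exon is spliced to the constant region, so the mature message of any kappa-bearing B or plasma cell contains Igkc. Resting B cells hold modest amounts of the message, while plasma cells, which secrete antibody, hold very large amounts. Long-lived plasma cells reside in the marrow beside stromal cells. In RefSeq's gene list for GRCm38.p6, used for names and gene order only, all 5 symbols matched by gene ID and lie on chromosome 6, with Igkj1 and Igkc downstream of the V genes. Between Igkv8-30 and Igkc that table lists 31 other kappa V genes and pseudogenes, and between Igkv6-23 and Igkc it lists 23. The suffix _x_at is the chip maker's mark for probes that may also hybridize to related sequences, so a V-segment signal here can include related V segments.

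Levels are log2 values and are compared between arrays for 1 probe set at a time, not between probe sets. The exception is the summed signal of a gene list, in which brighter probe sets weigh more. Crebbp, measured by 1 probe set, was at 8.52 ± 0.058 in wild-type stroma (mean ± SD, n = 4), at 7.74 ± 0.091 in Crebbp+/- and at 8.65 ± 0.12 in Ep300+/-, while no analysed probe set measures Ep300. Array medians over all probe sets lay between 7.98 and 8.43, the lowest being Ep300+/- 4. The Y-linked transcript Eif2s3y stood at 2.73 on Crebbp+/- 1 and 2.69 on Crebbp+/- 3, and between 8.41 and 10.84 on the other arrays. The table had been filtered, as its values show: each probe set reached the log2 of 100 (6.64) on 3 arrays or more, and no interquartile range was under 0.5001. Igkv8-30 met the level on 3 Crebbp+/- arrays and on 0 of the wild-type and 0 of the Ep300+/- arrays, so it could enter the table only by being high in Crebbp+/- stroma. The other 3 probe sets each met it on 4 Crebbp+/- arrays, 1 wild-type array and 2 Ep300+/- arrays.

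Kappa transcripts were higher in Crebbp+/- stroma than in wild-type and Ep300+/- stroma, and low to moderate in both of the latter. Igkv8-30 was selected on its known difference between Crebbp+/- and the other genotypes, and the other 3 probe sets read the same locus. The differences that involve Crebbp+/- are therefore a description. Each is given with its SE, and the limma calls among them are given as counts beside the share of all probe sets called, from which nothing is read.

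Igkv8-30, a V segment of the kappa locus, was at 4.60, 4.30, 4.39 and 4.01 on wild-type arrays 1 to 4. On Crebbp+/- arrays 1 to 4 it was at 5.34, 7.24, 8.36 and 7.13, and on Ep300+/- arrays 1 to 4 at 4.88, 3.60, 4.79 and 3.58. All 4 Crebbp+/- arrays lay above all 8 other arrays, with Crebbp+/- 3 highest and Crebbp+/- 1 nearest to the rest. The 8 other arrays were all under 5, a range in which signal and background are hard to separate, and the difference in size is uncertain to that extent.

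Of the probe sets shared by the kappa genes, 1427455_x_at was at 7.56, 6.35, 6.15 and 6.47 on wild-type arrays 1 to 4, at 8.01, 10.07, 11.26 and 9.92 on Crebbp+/- arrays, and at 7.69, 5.55, 7.47 and 4.35 on Ep300+/- arrays. The Crebbp+/- arrays were again above all others, Crebbp+/- 1 by a small margin over Ep300+/- 1 and wild-type 1. The level of 1427660_x_at was 6.87, 5.27, 5.76 and 6.17 in wild type, 7.42, 9.51, 10.80 and 9.16 in Crebbp+/-, and 7.41, 4.89, 7.79 and 2.23 in Ep300+/-. Here Ep300+/- 3 lay above Crebbp+/- 1, and Ep300+/- 4 lay far below every other array. The level of 1452417_x_at was 6.93, 4.82, 5.48 and 6.15 in wild type, 7.62, 9.46, 10.81 and 9.60 in Crebbp+/-, and 7.37, 5.02, 8.07 and 3.35 in Ep300+/-. As for 1427660_x_at, Ep300+/- 3 was above Crebbp+/- 1 and the remaining Crebbp+/- arrays were above all others.

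**Figure D1:**
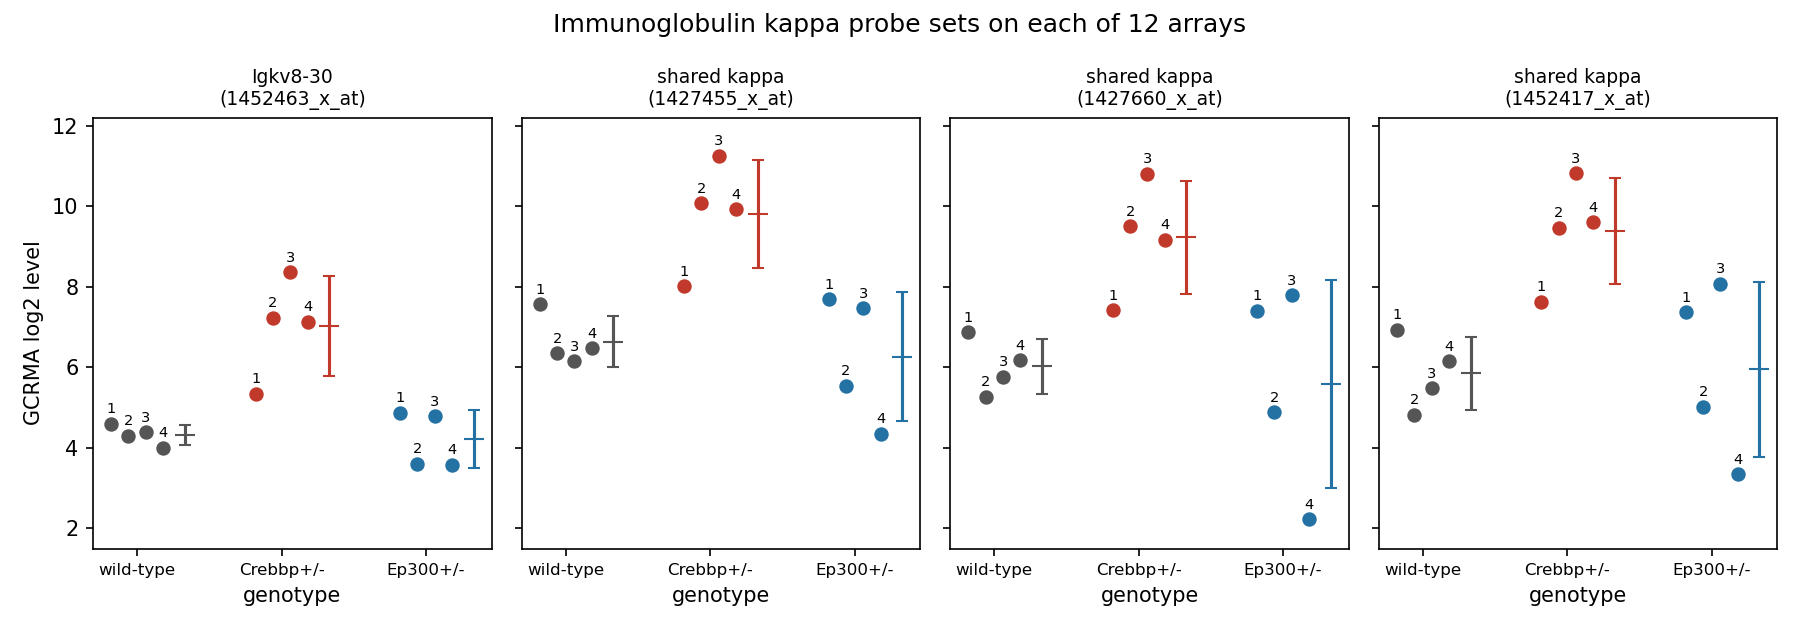
GCRMA log2 level (vertical axis) of Igkv8-30 and of the 3 probe sets shared by kappa genes, by genotype; each point is an array with its replicate number, and the bar to its right is the mean with the SD (n = 4). Crebbp+/- 2, 3 and 4 are the highest arrays in every panel, and Ep300+/- 4 is the lowest.

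The arrays took nearly the same order for all 4 probe sets. Crebbp+/- 3 was highest and Ep300+/- 4 lowest for each of them, and Crebbp+/- 2 and 4 came next. Over the 12 arrays, which include the genotype difference, Pearson's r between 2 of the probe sets ranged from 0.901 to 0.986, and over the deviations from the genotype means from 0.790 to 0.984. These are descriptions, since the probe sets read shared transcripts on the same arrays. The span over the 12 arrays was 8.57 log2 units for 1427660_x_at, the 5th widest of the 3109 probe sets, 7.47 for 1452417_x_at (13th), 6.90 for 1427455_x_at (20th) and 4.78 for Igkv8-30 (97th).

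Within a genotype the spread was unequal. The SD of Igkv8-30 was 0.25 in wild type, 1.25 in Crebbp+/- and 0.72 in Ep300+/- stroma (n = 4 each). For the shared probe sets it ran from 0.63 to 0.90 in wild type, from 1.32 to 1.39 in Crebbp+/- and from 1.60 to 2.58 in Ep300+/-. The Ep300+/- arrays fell into a higher pair, 1 and 3, and a lower pair, 2 and 4, for each of the 4 probe sets.

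Against wild type, the mean of Igkv8-30 in Crebbp+/- stroma was higher by 2.69 on the log2 scale (SE 0.54, means 7.02 ± 1.25 and 4.32 ± 0.25, SD, n = 4), a 6.48-fold difference. The difference was 3.18 (SE 0.77) for 1427455_x_at, 3.20 (SE 1.05) for 1427660_x_at and 3.53 (SE 0.95) for 1452417_x_at, or 9.07-fold, 9.21-fold and 11.5-fold. The median over all probe sets was 0.24, and by size these 4 differences were the 26th, 12th, 11th and 8th highest in the table, in the order given. Same-numbered arrays differed by 0.75, 2.93, 3.97 and 3.13 for Igkv8-30 (pairs 1 to 4), and pair 1 was also the smallest for the shared probe sets, at 0.45, 0.55 and 0.69.

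By limma, with p-values adjusted by Benjamini-Hochberg for all 3109 probe sets and a threshold of 0.05, 3 of the 4 kappa probe sets passed in this comparison, all higher, and 1427660_x_at did not. Of all probe sets, 6.18% passed, and 5.02% passed and were higher. All 4 Crebbp+/- arrays lay above all 4 wild-type arrays for each of the 4 probe sets, as they did for 10.4% of all probe sets. The comparison had a part in choosing the members, so these counts are no test of them. The count of 3 was 0 by limma without wild-type 2, wild-type 4 or Crebbp+/- 2, with 4 at an unadjusted p under 0.05 each time. In these fits, in that order, 30, 5 and 7 of all 3109 probe sets passed, beside 192 with every array. The count was 1 without wild-type 3, Crebbp+/- 1 or Crebbp+/- 3, where 48, 9 and 55 of all probe sets passed. The difference of Igkv8-30 stayed between 2.25 and 3.25 when any 1 array was left out. With the 10 arrays whose Eif2s3y was above 8, which leaves out the Crebbp+/- arrays 1 and 3, the difference of Igkv8-30 was 2.86 (SE 0.43). Those of the shared probe sets were 3.31 to 3.69. In that fit 1 of the 4 kappa probe sets passed, and 4 of all 3109 probe sets did. With array weights the differences were smaller, at 1.36 for Igkv8-30 and from 1.77 to 2.35 for the shared probe sets.

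**Figure D2:**
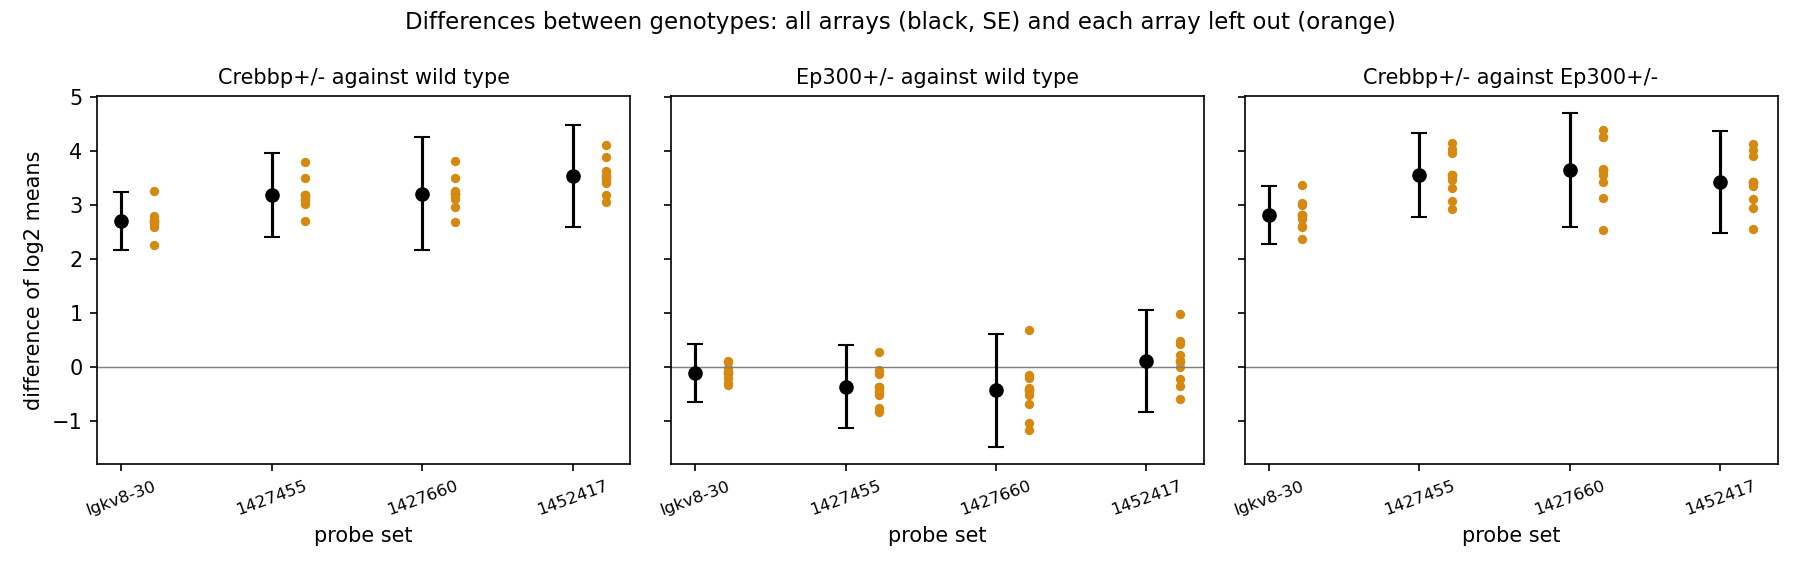
Difference of log2 means (vertical axis) for each kappa probe set in the 3 comparisons; black points are the fit over all 12 arrays with the SE, and orange points are the 12 fits that each leave out 1 array. The differences of Crebbp+/- from both other genotypes stay above 2 in each of these fits, and those of Ep300+/- from wild type lie on both sides of 0.

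In Ep300+/- against wild-type stroma no kappa probe set passed the test. The log2 difference was -0.11 for Igkv8-30 (SE 0.54, 95% interval -1.27 to 1.05, limma adjusted p = 0.986). It was -0.37 for 1427455_x_at (interval -2.04 to 1.31, limma adjusted p = 0.968), -0.44 for 1427660_x_at (interval -2.71 to 1.83, adjusted p = 0.975) and 0.11 for 1452417_x_at (interval -1.94 to 2.16, adjusted p = 0.998). The intervals of the shared probe sets include changes of 2 log2 units in at least 1 direction, so a difference of that size was not excluded by these arrays. Igkv8-30 reached at most 4.60 in wild type and 4.88 in Ep300+/-, where signal and background are hard to separate. It entered the table only through Crebbp+/- arrays, so its lack of a call is no test of a difference. By limma 0% of the 3109 probe sets passed in this comparison and 4.05% had an unadjusted p under 0.05, a level that 0 of the 4 kappa probe sets met. Single arrays turned the sign of each difference. Without Ep300+/- 4 it was 0.10 for Igkv8-30, 0.27 for 1427455_x_at and 0.68 for 1427660_x_at, and Igkv8-30 was also at 0.093 without Ep300+/- 2. The difference of 1452417_x_at, 0.98 without Ep300+/- 4, turned negative without wild-type 2 (-0.23), wild-type 3 (-0.014), Ep300+/- 1 (-0.37) or Ep300+/- 3 (-0.60).

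Crebbp+/- and Ep300+/- stroma were also set directly against each other, a comparison that shares the Crebbp+/- arrays with the first. Igkv8-30 was higher in Crebbp+/- by 2.80 (SE 0.54) and the shared probe sets by 3.55 (SE 0.77), 3.64 (SE 1.05) and 3.42 (SE 0.95), for 1427455_x_at, 1427660_x_at and 1452417_x_at. By limma 2 of the 4 passed, Igkv8-30 and 1427455_x_at, where of all probe sets 6.4% passed and 4.89% passed and were higher. For the same 2 probe sets the arrays of the genotypes did not overlap, as was the case, with Crebbp+/- above, for 9.13% of all probe sets. A fit blocked on replicate number called all 4 higher here and all 4 against wild type, beside 19.1% and 17.5% of all probe sets called higher. As against wild type, these counts are no test. Igkv8-30 was chosen on its known difference and entered the table through high Crebbp+/- values, and the shared probe sets read the same locus. The count of 2 was 0 by limma without Crebbp+/- 2 or Ep300+/- 1 (4 at an unadjusted p under 0.05), 1 without Ep300+/- 2 or Ep300+/- 4, and 4 without Ep300+/- 3. Same-numbered arrays differed for Igkv8-30 by 0.47 in pair 1 and by 3.63, 3.57 and 3.55 in pairs 2 to 4.

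Other genes of the B lineage gave little to set beside the kappa signal. Of 26 B-lineage genes chosen as markers, among them the defining Cd79a, Cd79b, Ms4a1 and Pax5, 2 were measured, Blnk and Cd72. A gene that is low or even on all arrays would have been removed by the filter of the table, so a gene with no probe set here has no value, and whether it was expressed is not known. Blnk, an adaptor of B cell receptor signalling that macrophages also express, was at 6.83, 7.64, 7.22 and 8.16 on wild-type arrays 1 to 4, at 5.65, 6.00, 6.48 and 6.87 on Crebbp+/- arrays and at 7.99, 7.42, 7.75 and 8.77 on Ep300+/- arrays. Its mean was thus lowest in the genotype in which the kappa probe sets were highest. Blnk fell by 1.73 on the log2 scale in Crebbp+/- relative to Ep300+/- (SE 0.38, limma adjusted p = 0.0235), with no overlap of the arrays. That limma call was lost without Crebbp+/- 1, Crebbp+/- 2, Ep300+/- 1 or Ep300+/- 4 (adjusted p = 0.0918, 0.0771, 0.0717 and 0.0660). A fit of the compared genotypes alone lost it too (limma adjusted p = 0.0545), as did a Y-linked covariate (0.202) and the arrays of Eif2s3y above 8 (0.202). Against wild type the difference was -1.21 (SE 0.38, limma adjusted p = 0.0789), and adjusted p = 0.0119 in the fit blocked on replicate number. That blocked fit called 812 of all 3109 probe sets in this comparison.

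Cd72, a B cell surface protein that binds a semaphorin, ran from 5.73 to 6.99 in wild type, from 6.09 to 6.69 in Crebbp+/- and from 5.18 to 7.30 in Ep300+/- stroma. Its arrays overlapped in every comparison, and its difference between Crebbp+/- and wild type was -0.25 (SE 0.42, limma adjusted p = 0.709). The log2 of the summed signal of the 2 genes was 7.66 to 8.68 in wild type, 7.11 to 7.53 in Crebbp+/- and 7.97 to 9.22 in Ep300+/-.

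Of 9 genes of the pre-B stage and of V(D)J recombination, Sox4, a transcription factor also found in stroma, was the 1 measured. By its probe set of highest mean it was higher by 0.43 in Crebbp+/- than in wild type (SE 0.29, limma adjusted p = 0.352), while its other probe set rose by 1.97 (limma adjusted p = 0.0133). The probe sets of Sox4 thus disagreed, and the call of the latter was lost without wild-type 2 or 4 or Crebbp+/- 1 or 2 (adjusted p up to 0.0588), with a Y-linked covariate (0.266) or with the arrays of Eif2s3y above 8 (0.228). Of 11 plasma cell genes, Prdm1, the repressor that drives plasma cell differentiation and is also induced in macrophages, was the 1 measured. It was at 4.37 to 4.49 on the wild-type arrays. On Crebbp+/- arrays 1 to 4 it was at 6.06, 4.34, 8.26 and 4.54, and on Ep300+/- arrays at 5.66, 6.21, 9.07 and 6.95. Its array order was not that of the kappa probe sets, since Crebbp+/- 2 and 4 were at the wild-type level and all 4 Ep300+/- arrays were above it. The differences of 1.38 in Crebbp+/- (SE 0.83, limma adjusted p = 0.299) and 2.55 in Ep300+/- (SE 0.83, limma adjusted p = 0.841) did not pass.

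Stromal factors that support B lymphopoiesis showed no call. Of 11 such genes 7 were measured, and 0 passed in any of the 3 comparisons by limma, with a median log2 difference of 0.25 in Crebbp+/- against wild type, near the table's 0.24. Il7, the cytokine on which mouse B cell precursors depend, differed by 0.40 (SE 0.28, limma adjusted p = 0.364), Cxcl12, the chemokine that retains B cell precursors and plasma cells in marrow, by 0.25 (SE 0.32, adjusted p = 0.632), Vcam1, the adhesion molecule of stroma, by 0.39 (SE 0.39, adjusted p = 0.541), and Il6, a plasma cell survival factor, by 0.58 (SE 0.82, adjusted p = 0.658). Cxcl12 was high on every array, from 13.50 to 14.92.

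Of 10 genes of Fc receptors, which bind the constant part of antibodies, and of related proteins, 5 were measured and 1, Fcgr4, rose. Fcgr4, an activating IgG receptor of myeloid cells, was at 9.54, 9.71, 9.16 and 9.27 on wild-type arrays 1 to 4, at 10.45, 10.36, 10.49 and 10.14 on Crebbp+/- arrays and at 9.35, 9.49, 9.84 and 9.26 on Ep300+/- arrays. The Crebbp+/- arrays lay above all others. It rose by 0.94 against wild type (SE 0.23, limma adjusted p = 0.0338) and by 0.88 against Ep300+/- (SE 0.23, limma adjusted p = 0.0412), and each call held in 3 of the 12 fits that leave out 1 array, the first without Crebbp+/- 4, Ep300+/- 3 or Ep300+/- 4 and the second without wild-type 3, Crebbp+/- 4 or Ep300+/- 3. In the others the adjusted p ran up to 0.120 and 0.139. Both limma calls were also lost with quantile normalization (adjusted p = 0.0849 and 0.0644), median centring (0.0609 and 0.0619), the compared genotypes alone (0.0504 and 0.121), a Y-linked covariate (0.384 and 0.277) and the arrays of Eif2s3y above 8 (0.295 and 0.235). The inhibitory IgG receptor Fcgr2b (0.55, limma adjusted p = 0.196), the high-affinity Fcgr1 (0.56, adjusted p = 0.113) and Fcrls (-0.47, adjusted p = 0.527) did not pass. In the fit blocked on replicate number Fcgr1 passed as well (limma adjusted p = 0.0393 against wild type and 0.0240 against Ep300+/-), for 2 of 5 called. Of all probe sets, 17.5% and 19.1% were called higher in these blocked comparisons.

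Endothelial markers moved with genotype on the same arrays, while those of other cell types gave few calls or none without the replicate block. Of 14 endothelial markers 13 were measured, and 8 rose in Crebbp+/- against wild type and 13 against Ep300+/-, with medians of 1.98 and 2.25 beside 0.24 and 0.025 over the table. Without the block, 5.02% and 4.89% of all probe sets passed and were higher, against wild type and Ep300+/- in turn. With the replicate block 13 endothelial markers passed in both comparisons, beside 17.5% and 19.1% of all probe sets called higher. With a Y-linked covariate 0 of all 3109 probe sets passed against wild type, and with the arrays of Eif2s3y above 8 only 4 did. Single arrays could end the endothelial calls too. Against wild type the calls over the whole table, 192 with every array, fell in the same fits. There 0 endothelial markers passed by limma without wild-type 4, Crebbp+/- 1 or Crebbp+/- 2, beside 5, 9 and 7 of all 3109 probe sets. Only 1 passed without wild-type 2, wild-type 3 or Crebbp+/- 3, beside 30, 48 and 55 of all probe sets. With Crebbp+/- 4 left out 13 passed, beside 383 of all. Against Ep300+/- 0 passed without Crebbp+/- 1 or Ep300+/- 1, 4 without Crebbp+/- 2, 5 without Ep300+/- 4 and 7 without Crebbp+/- 3. Over the fits without 1 array, 2 to 374 of all probe sets passed in that comparison. The log2 of the summed endothelial signal was 11.96 to 12.56 in wild type and 11.58 to 12.04 in Ep300+/-. On Crebbp+/- arrays 1 to 4 it was 14.11, 13.82, 14.05 and 12.72. Crebbp+/- 1, the lowest of its group for kappa, was highest here by a small margin over Crebbp+/- 3, the highest array for kappa. Crebbp+/- 4 was the lowest of its group for endothelial signal but well above Crebbp+/- 1 for kappa. Among 14 macrophage markers 2 were measured. Cd163, a scavenger receptor, rose by 1.18 in Crebbp+/- against wild type (SE 0.26, limma adjusted p = 0.0228), a call that held in 6 of 12 fits without 1 array. That call was lost with quantile normalization (0.84, limma adjusted p = 0.176), median centring (adjusted p = 0.0594), a Y-linked covariate (0.284) and the arrays of Eif2s3y above 8 (0.233). Cd163 in Ep300+/- differed from wild type by 0.84 (limma adjusted p = 0.834, unadjusted p = 0.00643), and Crebbp+/- differed from Ep300+/- by 0.34 (adjusted p = 0.471). Cd14 differed by 0.69 in Crebbp+/- against wild type (adjusted p = 0.528). Of 8 plasmacytoid dendritic cell genes Bst2, which interferon also induces, was measured (0.996, SE 0.29, limma adjusted p = 0.0630, and 0.0141 with the replicate block). Against Ep300+/- Bst2 differed by 0.946 (limma adjusted p = 0.0709, and 0.0153 with the replicate block). Of 18 T and NK cell and 10 granulocyte markers 0 were measured. Of 12 stromal markers 6 were measured and 0 passed against wild type, among them Lepr (1.13, adjusted p = 0.579), Col1a2 (-1.42, 0.135), Col3a1 (0.68, 0.210) and Foxc1 (0.52, 0.354), all genes of matrix-producing or reticular stroma. With the replicate block Col1a2 passed against wild type (limma adjusted p = 0.0346). Its level was low, and at 4.90 and 4.87 on Crebbp+/- 1 and 3 signal and background are hard to separate. Col3a1, Ebf3 and Foxc1 passed with the block against Ep300+/- (1.15, 0.99 and 0.76, limma adjusted p = 0.0292, 0.0140 and 0.0295), where 0 of 6 had passed without it. The part of any of these in the kappa difference was not tested, and in bulk RNA fewer cells of a type and less RNA per cell cannot be told apart.

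**Figure D3:**
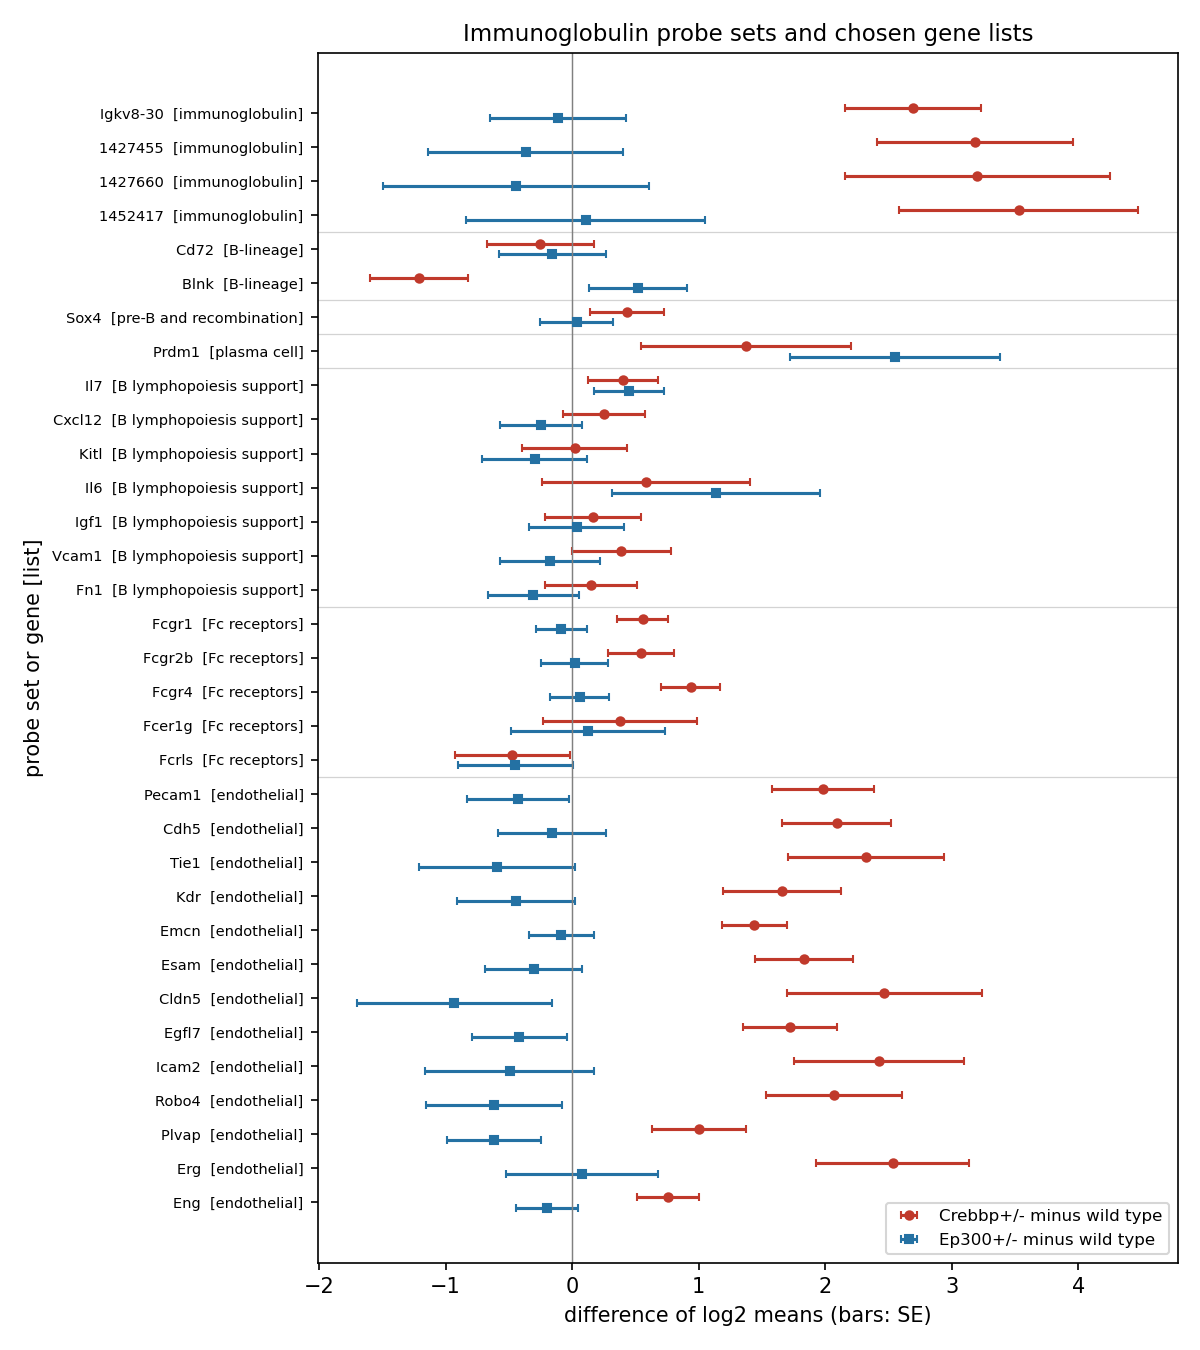
Difference of log2 means (horizontal axis, bars are the SE) in Crebbp+/- minus wild type (red) and Ep300+/- minus wild type (blue), for the kappa probe sets and for each measured gene of 6 lists, by its probe set of highest mean. The kappa differences in Crebbp+/- run from 2.69 to 3.53, while the 2 B-lineage genes lie at -0.25 and -1.21.

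The probe sets whose pattern was most like that of Igkv8-30 were sought by Pearson's r over the 12 arrays, a measure that includes the genotype difference, and are given as a description. The 3 shared kappa probe sets had r of 0.967, 0.901 and 0.922. Outside the members 1 probe set had r of at least 0.9, the unnamed 1424631_a_at, which has no gene symbol here, at 0.941. It was at 2.72 to 2.87 on the wild-type arrays, at 6.42, 7.09, 8.83 and 7.65 on Crebbp+/- arrays 1 to 4, and at 4.80, 2.71, 2.76 and 2.74 on Ep300+/- arrays. Crebbp+/- 3 was thus highest and Crebbp+/- 1 lowest of its group, as for the kappa probe sets, and Ep300+/- 1 stood out among the remaining arrays. The wild-type values are low and may be background. Without a symbol 1424631_a_at could not be searched by the rule, so whether it measures an immunoglobulin gene is not known here.

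The 8 named genes most like Igkv8-30 were Clic4 (r = 0.886), a chloride intracellular channel protein, Rgs4 (0.877), a regulator of G protein signalling, Fibin (0.836), Fcgr4 (0.826), the kinase Mark1 (0.821), the cotransporter Slc12a2 (0.818), Tcim (0.818) and Agrn (0.816), the proteoglycan agrin. Their differences between Crebbp+/- and wild type were smaller than those of the kappa probe sets, from 0.71 for Clic4 to 1.72 for Rgs4. Their likeness was mostly that of the genotype means: over the deviations from the genotype means r ran from 0.106 (Agrn) to 0.543 (Rgs4), against 0.790 to 0.899 for the shared kappa probe sets and 0.767 for the unnamed probe set.

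**Figure D4:**
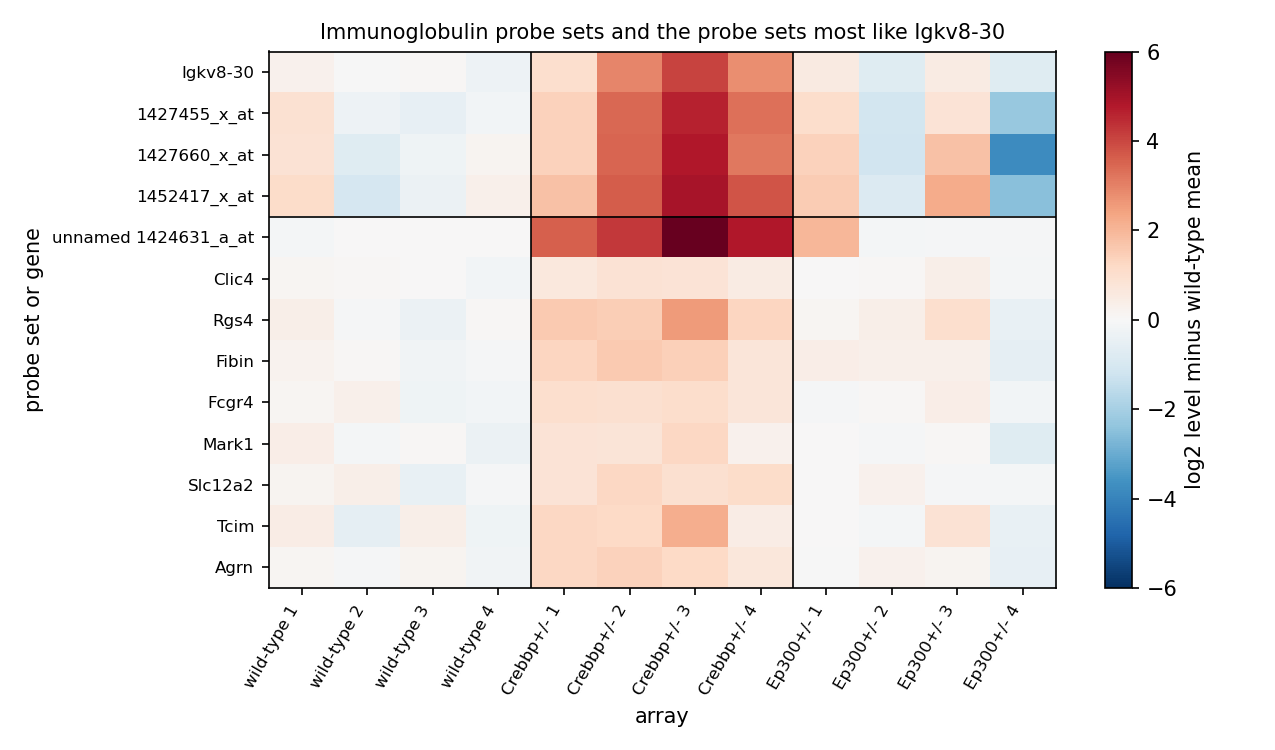
Log2 level minus the wild-type mean of the same probe set (colour scale) on each of the 12 arrays (columns), for the 4 kappa probe sets, the unnamed 1424631_a_at and the 8 named genes most like Igkv8-30 (rows). The 4 kappa rows and the unnamed row are deepest on Crebbp+/- 3, and the 8 named genes are shallower, with differences up to 1.72.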

How the data were processed

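The values are log2 expression levels as deposited by the authors, who used GCRMA according to the submitters' processing notes. GCRMA estimates background from the base composition of probes, scales arrays to one another and combines the probes of a set. The version and chip definition were not given in the sources used here. From 3127 probe sets, 18 controls were removed. Symbols came from the platform annotation, with 1 symbol for 2486 probe sets, several for 176 and none for 447. Genotypes were compared with limma 3.58.1 in R 4.3.3 by a linear model with moderated variances, one mean for each genotype and no further term, on all 12 arrays at once. Tests were two-sided, and p-values were adjusted by Benjamini-Hochberg for 3109 probe sets. The procedure was tested on simulated data.

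The members and gene lists were chosen with earlier results of these data known. Named are all members, up to 4 genes per list with the smallest p in Crebbp+/- against wild type (a gene stands for its brightest probe set), and the 8 genes most like Igkv8-30. The other Sox4 probe set, Ebf3 and 1424631_a_at were named after their values were seen. List signals are sums of linear values on an array.

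Pairing by replicate number was checked on deviations from the genotype means. Same-numbered Crebbp+/- and wild-type arrays correlated at 0.448 to 0.603, Crebbp+/- and Ep300+/- arrays at 0.294 to 0.513, and Ep300+/- and wild-type arrays at 0.059 to 0.683. All pairs exceeded 0.1 in the comparisons with Crebbp+/-, so the numbers pair those arrays by the data, while the labels do not say what a number shares. The reported differences, SEs and p-values come from the fit without the pairing, and the blocked value or count is given where it changes a call. Precision is limited by the number of arrays. The alternatives were quantile normalization, median centring, a filter and a floor on low values, a trended robust variance, fits of the compared genotypes alone, array weights, the replicate block, and omission of each array.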

Additional observations from a re-analysis of the deposited data

Results flagged for a closer look

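None of the 12 kappa groups of 4 arrays held an array far from its group. Among 35 probe sets and 3 genotypes, 105 groups in all, 8 did by Dixon's criterion, where chance gives about 1 in 20. Cxcl12 stood at 13.96 on Crebbp+/- 4 against 14.85 to 14.92 on the other Crebbp+/- arrays. Il6 stood at 11.74 on Ep300+/- 3 against 7.66 to 8.28. Fcgr2b stood at 12.70 on wild-type 1 against 13.11 to 13.19. Bst2 stood at 10.69 on Ep300+/- 4 against 11.55 to 11.71. The endothelial cadherin Cdh5 stood at 8.91 on wild-type 1 against 7.95 to 8.02, and at 9.04 on Crebbp+/- 4 against 10.58 to 10.82. Col1a2 stood at 4.08 on Ep300+/- 3 against 6.32 to 6.60, and Fibin at 5.01 on Ep300+/- 4 against 5.86 to 5.96. The unnamed 1424631_a_at, not counted among the 8, stood at 4.80 on Ep300+/- 1 against 2.71 to 2.76 on the other Ep300+/- arrays.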

How the results depend on the processing

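Every difference of a kappa probe set between Crebbp+/- and either other genotype kept its sign in all alternatives run, from 1.36 to 4.38 log2 units, while calls moved. In Crebbp+/- against wild type the count of 3 ranged from 0 to 4 when 1 array was left out. It was 0 by limma with the Y-linked covariate (4 at an unadjusted p under 0.05). It was 1 with the arrays of Eif2s3y above 8, and both alternatives were chosen after seeing the data. Calls over all 3109 probe sets moved too, from 192 to between 5 and 383 when 1 array was left out. They were 0 with the Y-linked covariate, 4 with the arrays of Eif2s3y above 8 and 1425 with array weights. In Crebbp+/- against Ep300+/- the count of 2 also ranged from 0 to 4 when 1 array was left out, where 2 to 374 of all probe sets passed. It was 1 with a mean level of at least 6 (which leaves out Igkv8-30), 1 with Eif2s3y above 8, and 0 by limma with the compared genotypes alone or with the Y-linked covariate (4 at an unadjusted p under 0.05 in each). It was 4 with values under 5 set to 5 and 4 with array weights, whose estimation stopped before it converged. It was also 4 with the replicate block, where 19.1% of all probe sets were called higher. The block changed 0 kappa calls in Ep300+/- against wild type. The cause was not tested.

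Ep300+/- against wild type kept 0 kappa calls by limma in every alternative, with 0 at an unadjusted p under 0.05, but signs turned. The difference of 1427660_x_at became 0.28 with values under 5 set to 5, and that of Igkv8-30 became 0.090 with quantile normalization. Over the fits without 1 array the differences ran from -0.33 to 0.10 for Igkv8-30, from -0.84 to 0.27 for 1427455_x_at, from -1.18 to 0.68 for 1427660_x_at and from -0.60 to 0.98 for 1452417_x_at.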
